A study of Mus musculus with 20 samples.

Results

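The regulators of G protein signalling described here are 9 mouse genes, Rgs2, Rgs3, Rgs4, Rgs5, Rgs7, Rgs8, Rgs10, Rgs14 and Rgs16, read on arrays of 2 brain regions from mice with and without a knock-in allele. Every probe set whose annotation names 1 of these genes and no other was taken, which gave 20 of the 22626 probe sets of the array that are not controls, and 9 of the 12393 genes these name singly. A probe set is a group of short oligonucleotides on the array that together read 1 transcript or a few, and its value is a fluorescence intensity. Of the 20, 17 passed the filter on low intensities, with each of the 9 genes among them. The filter asks for a value above the 40th percentile of the array on at least 2 arrays, and that limit had a median of 681. The 3 that did not pass were 1454026_a_at of Rgs3 and 1426037_a_at and 1455265_a_at of Rgs16.

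Total RNA was hybridised to 20 arrays in 8 groups. Knock-in and wild-type mice were each measured in both regions at 4 weeks (3 arrays a group) and at a later age (2 arrays a group). Titles put the later age at 12 weeks and descriptions at 11, and the second is used here. The labels give neither the gene that carries the knock-in nor the strain. They do not state that the arrays of a group are separate mice, so each p-value measures only how these samples vary, which may be technical variation. Region was taken from the short code inside each title, because the source field calls 7 of the 10 forebrain arrays cerebellum, and the description of knock-in forebrain 4 weeks replicate 3 does so too. On the 10 arrays coded as forebrain, Pcp2, a Purkinje cell protein, read 49.96 to 579 and Gabra6, a receptor subunit of cerebellar granule cells, 18.9 to 364, all under the filter limit, against 38010 to 55244 and 35953 to 46884 on the cerebellar arrays. Bcl11b, a transcription factor of deep cortical neurons, read 3472 to 6182 in forebrain and 13.8 to 31.9 in cerebellum. Both regions are mixed tissue, in which fewer cells of a type and less RNA per cell cannot be told apart.

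RGS proteins end the signal of receptors that act through heterotrimeric G proteins. They bind the active, GTP-bound alpha subunit and speed its hydrolysis of GTP, after which alpha and beta-gamma rejoin and effectors such as phospholipase C beta, adenylyl cyclase and GIRK potassium channels are released. Rgs2, Rgs3, Rgs4, Rgs5, Rgs8 and Rgs16 belong to the small R4 family, Rgs7 to the R7 family, which works in a complex with the beta subunit Gnb5, and Rgs10 and Rgs14 to the R12 family. In brain, Rgs8 is known from Purkinje cells, Rgs4 from cortical neurons, Rgs14 from CA2 pyramidal cells of the hippocampus and Rgs5 from pericytes of small vessels.

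In RefSeq's GRCm38.p6 annotation, 6 of the 9 genes lie on chromosome 1, and among them are 2 pairs of neighbours. Rgs5 and Rgs4 are adjacent, with 0 genes annotated between them. Rgs8 and Rgs16 have 1 gene between them, which is not protein-coding. The upstream sequences of these 4 genes are shown because the partners of each pair had different levels across the regions in the data below. Each is the 250 bases before the annotated start (for Rgs8 the most upstream of 3 starts), from RefSeq, 5′ to 3′ on the gene's strand. Capitals mark matches on either strand to the TATA box letters TATAAA, the CCAAT box CCAAT, or TGACG, the core of a cyclic AMP response element.

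Rgs8, chr1:153652787-153653036, plus strand: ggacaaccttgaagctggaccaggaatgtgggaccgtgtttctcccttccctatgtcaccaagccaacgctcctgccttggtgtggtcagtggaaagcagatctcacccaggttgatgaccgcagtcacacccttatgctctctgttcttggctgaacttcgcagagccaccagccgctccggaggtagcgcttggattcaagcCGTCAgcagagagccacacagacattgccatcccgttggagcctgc
Rgs16, chr1:153740103-153740352, plus strand: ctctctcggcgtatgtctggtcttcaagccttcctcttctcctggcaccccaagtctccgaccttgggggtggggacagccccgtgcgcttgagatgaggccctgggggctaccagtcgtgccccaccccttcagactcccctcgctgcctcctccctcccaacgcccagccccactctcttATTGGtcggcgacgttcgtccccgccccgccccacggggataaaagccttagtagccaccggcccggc
Rgs5, chr1:169655251-169655500, plus strand: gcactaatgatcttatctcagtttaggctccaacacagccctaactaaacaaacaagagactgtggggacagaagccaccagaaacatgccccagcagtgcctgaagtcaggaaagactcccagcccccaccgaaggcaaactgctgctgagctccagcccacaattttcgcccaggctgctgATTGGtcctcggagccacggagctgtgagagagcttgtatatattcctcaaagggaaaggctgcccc
Rgs4, chr1:169747643-169747892, minus strand: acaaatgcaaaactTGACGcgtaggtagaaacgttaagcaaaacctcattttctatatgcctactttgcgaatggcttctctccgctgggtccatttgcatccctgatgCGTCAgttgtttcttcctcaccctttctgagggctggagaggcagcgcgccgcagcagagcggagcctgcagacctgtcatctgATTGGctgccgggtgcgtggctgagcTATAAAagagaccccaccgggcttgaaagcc

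The Rgs4 sequence holds all 3 kinds of match, with TATAAA ending near the start (its first base 31 bases upstream), CCAAT at 57 bases on the other strand, and TGACG at 236 and, on the other strand, 141 bases. Rgs5 and Rgs16 each hold 1 CCAAT match on the other strand, at 67 and 68 bases. The Rgs8 sequence holds 1 TGACG match on the other strand, at 46 bases. The windows of the other Rgs8 starts, not shown, hold CCAAT matches, at 152 bases on the other strand and at 100 bases. Among all 32851 promoter windows of this length, 12.4% hold TATAAA, 33.8% hold CCAAT and 17.8% hold TGACG. Of the 11 windows of the 8 genes with an entry, 3 hold TATAAA, 6 CCAAT and 3 TGACG. The octamer TGAATGAA, bound by the repressor Capicua, was also searched on both strands, and 0 of the 11 windows hold it, against 1.08% of all windows. A match describes letters and not a bound site.

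Of the 9 genes, 7 differed between the regions in wild-type mice at their brightest probe set. Intensities also depend on the probes, so levels are compared only within a probe set. Differences are given as log2(intensity + 16) with the standard error of the limma model, and adjusted p is from limma with Benjamini-Hochberg adjustment over all 15627 kept probe sets. A probe set was called at an adjusted p under 0.05. In wild-type mice, averaged over the ages, 3 of the 17 Rgs probe sets were higher in cerebellum, where 26.6% of all probe sets tested were higher, and 8 were lower, against 21.3% of all. By the brightest probe set of each gene, 2 were higher and 5 lower.

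**Figure D1:**
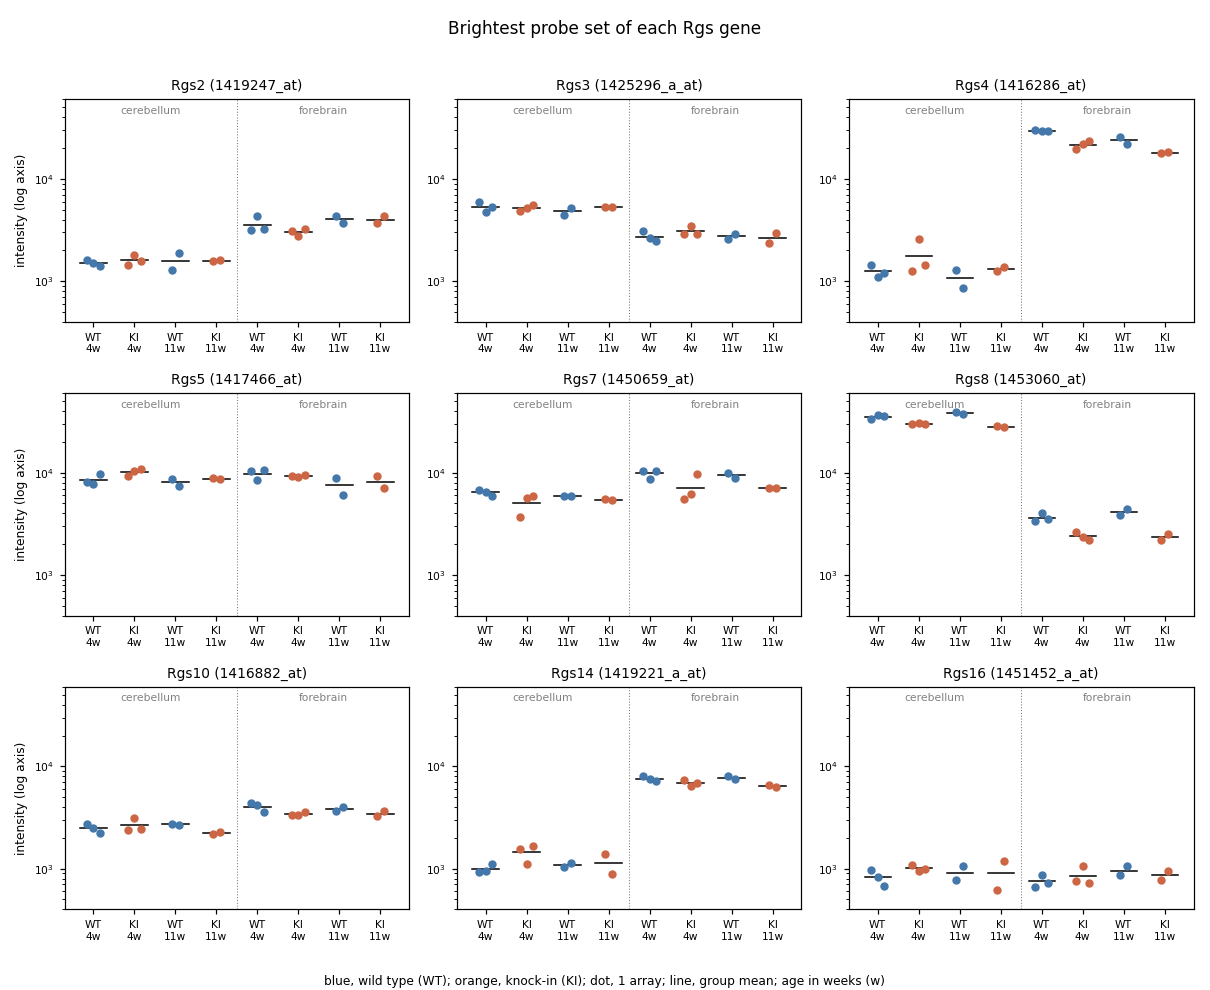
Intensity (log axis) of the brightest probe set of each of the 9 Rgs genes on the 20 arrays, by genotype and age (weeks, w), with cerebellum on the left and forebrain on the right of each panel; dots are arrays and lines group means. Rgs8 is high in cerebellum, Rgs4 and Rgs14 are high in forebrain, and Rgs5 and Rgs16 lie at similar levels in both.

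Rgs8, an R4 regulator, was the member with the strongest cerebellar preference. Its probe set read 36545 ± 2077 in wild-type cerebellum and 3829 ± 404 in wild-type forebrain (SD, n = 5 each, both ages together). The log2 difference was 3.25 ± 0.08, or 9.50-fold (adjusted p = 5.05e-14). All 10 cerebellar arrays, from 27722 to 39424, lay above all 10 forebrain arrays, the highest of which was 4384.

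Rgs3 was higher in cerebellum by 2 of its 3 kept probe sets. Rgs3 is an R4 regulator with several protein forms from alternative starts. Its brightest probe set, 1425296_a_at, read 5154 ± 578 in wild-type cerebellum and 2733 ± 263 in forebrain (log2 difference 0.89 ± 0.10, adjusted p = 2.58e-06). The second, 1425701_a_at, read 2431 ± 308 and 719 ± 99 (1.74 ± 0.11, adjusted p = 4.16e-09), and in forebrain lay above the filter limit on only 5 of 10 arrays. The third, 1449516_a_at, read 1080 ± 69 and 1203 ± 192, a difference of -0.16 ± 0.12 that was not called (adjusted p = 0.274; 95% interval of the difference -0.40 to 0.09).

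Rgs4, a regulator of Gi/o and Gq signals, was higher in forebrain at all 3 of its probe sets. The brightest, 1416286_at, read 27350 ± 3559 in wild-type forebrain and 1179 ± 217 in cerebellum (-4.52 ± 0.16, cerebellum minus forebrain, adjusted p = 3.5e-12). The second, 1416287_at, differed by -3.57 ± 0.13 (adjusted p = 3.55e-12). The third, 1448285_at, lay under the filter limit on all 5 wild-type cerebellar arrays, so its level was at least 16.4-fold higher in forebrain, with the limit in place of the dimmer values (adjusted p = 5.45e-13). It passed the filter only through forebrain, where it was high, so its call is not independent support for the regional difference.

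Rgs14, a scaffold that joins G alpha and Ras signals, read 7645 ± 355 in wild-type forebrain and 1034 ± 98 in cerebellum, a log2 difference of -2.86 ± 0.13 (adjusted p = 4.87e-11). Rgs2, a regulator selective for Gq, was lower in cerebellum at both probe sets, with 1548 ± 229 against 3760 ± 599 at 1419247_at (-1.28 ± 0.12, adjusted p = 3.08e-07) and -1.47 ± 0.19 at 1419248_at (adjusted p = 8.07e-06). The differences of Rgs7 and Rgs10 were smaller and went the same way. Rgs7 read 6211 ± 410 in cerebellum and 9649 ± 810 in forebrain (-0.64 ± 0.15, adjusted p = 0.00238). Rgs10 read 2584 ± 211 and 3946 ± 338 (-0.59 ± 0.09, adjusted p = 8.22e-05). As Rgs10 is also known from microglia, the microglial markers are given beside it. Of these, 9 of 9 measured were lower in wild-type cerebellum, where 21.3% of all probe sets tested were called lower. Among them, Aif1 was under the filter limit on every cerebellar array and above it on only 2 forebrain arrays. The part of these markers in the Rgs10 difference was not tested.

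Rgs5 and Rgs16 were not called between the regions. The brightest Rgs5 probe set read 8332 ± 938 in wild-type cerebellum and 8878 ± 1815 in forebrain (-0.04 ± 0.12, adjusted p = 0.81), and none of the other 3 was called. Rgs16, an R4 regulator, was dim, at 857 ± 151 and 833 ± 154 (0.02 ± 0.17, adjusted p = 0.933), and exceeded the limit on 17 of 20 arrays. Thus each neighbour pair on chromosome 1 held 1 gene with a large regional difference, Rgs4 or Rgs8, and 1 gene without a called difference. The other 2 Rgs16 probe sets exceeded the limit on 1 and 0 arrays, and the Rgs3 probe set 1454026_a_at on 0, with intensities of 32.3 to 138.

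Leaving out any 1 of the 20 arrays kept all 11 regional calls. The 8 groups were ordered for Rgs8 by region first and then by genotype. From the highest they were wild-type cerebellum at 11 and 4 weeks (38320 ± 1562, n = 2, and 35362 ± 1469, n = 3), knock-in cerebellum at 4 and 11 weeks (30105 ± 694 and 28250 ± 747), wild-type forebrain at 11 and 4 weeks (4117 ± 379 and 3637 ± 341), then knock-in forebrain at 4 and 11 weeks (2417 ± 223 and 2358 ± 203). Only the neighbours of equal genotype in forebrain overlapped in their arrays. Rgs4 (1416287_at) gave a like order for forebrain, with wild type at 4 weeks (20104 ± 936, n = 3), wild type at 11 weeks (15449 ± 567, n = 2), knock-in at 4 weeks (11951 ± 1959) and knock-in at 11 weeks (9604 ± 12) not overlapping, and with the 4 cerebellar groups, 1392 to 1905 on average, overlapping their neighbours. At 1416286_at, the brightest, and 1448285_at the forebrain order of means was the same, but wild type at 11 weeks overlapped knock-in at 4 weeks.

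Between the genotypes, Rgs8 and Rgs4 were lower in knock-in forebrain. At 4 weeks, 3 of the 17 Rgs probe sets fell in knock-in forebrain, 1 of Rgs8 and 2 of Rgs4, where 2.42% of all probe sets tested fell, and 0 rose, against 4.95% of all. At 11 weeks 1 fell, that of Rgs8 (0.48% of all fell), and 0 rose (0.384% of all). Over the mean of both ages 3 fell, the same as at 4 weeks (5.13% of all), and 1 of Rgs3 rose (8.36% of all). Of the 9 brightest probe sets, the median difference in forebrain was -0.22 at 4 weeks and -0.14 at 11 weeks, beside 0.05 at both ages over all genes tested. The split of all calls in forebrain depended on scaling: 67.2% of calls were rises at 4 weeks with the deposited scaling, 49.6% after quantile and 42.9% after cyclic loess normalization, and the shares were 62%, 47.8% and 39.3% for the mean of ages and 44.4%, 29.7% and 27.4% at 11 weeks.

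In both regions and at both ages, Rgs8 was lower on each knock-in array than on each matching wild-type array. Here and below, the share of all probe sets whose genotypes lie apart in this way was not counted. With so few arrays a group, genotypes can lie apart by chance, so a lack of overlap alone is weak evidence. In forebrain at 4 weeks the knock-in arrays read 2659, 2372 and 2220, and the wild-type arrays 3360, 4018 and 3533. At 11 weeks they read 2214 and 2501 against 3849 and 4384. The groups did not overlap at either age. The log2 difference was -0.59 ± 0.10 at 4 weeks (adjusted p = 0.00539) and -0.80 ± 0.12 at 11 weeks (adjusted p = 0.00822), with a mean of -0.69 ± 0.08, or 1.62-fold lower (adjusted p = 0.000199). The mean and the 4-week call held without any 1 array, while the call at 11 weeks was lost without knock-in forebrain 11 weeks replicate 1 or wild-type forebrain 11 weeks replicate 2 (adjusted p up to 0.0582) and in a fit of the forebrain arrays alone (0.0878).

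In cerebellum, where Rgs8 is far more abundant, the knock-in arrays at 4 weeks read 29856, 30890 and 29570 and the wild-type arrays 33669, 36294 and 36125. At 11 weeks they read 28778 and 27722 against 39424 and 37215. Again no knock-in array reached a wild-type array. Neither age was called singly (-0.23 ± 0.10, adjusted p = 0.331, and -0.44 ± 0.12, adjusted p = 0.124), and the mean of the ages fell by 0.34 ± 0.08 on the log2 scale (adjusted p = 0.0335). That call was lost without any 1 of the cerebellar arrays other than knock-in 4 weeks replicate 2 and wild-type 4 weeks replicate 1 (adjusted p up to 0.111), and after quantile normalization or without the filter (up to 0.057). The difference between the regions in the genotype effect was 0.36 ± 0.11 and was not called (adjusted p = 0.277; 95% interval 0.12 to 0.60).

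Purkinje cell markers were set beside Rgs8. The summed intensity of 7 Purkinje cell markers was 186346 to 197418 in knock-in and 203007 to 209007 in wild-type cerebellum at 4 weeks, and 165437 to 194977 against 206923 to 210301 at 11 weeks. In cerebellum over the mean of ages, 1 of the 7 fell (1.1% of all probe sets fell) and 0 rose (2.25% of all rose). It was Itpka, an inositol trisphosphate kinase, which fell by 0.59 ± 0.14 (adjusted p = 0.0339). In forebrain the same sum was 29495 to 30007 in knock-in and 38167 to 41842 in wild-type mice at 4 weeks, and 29622 to 31887 against 33336 to 39462 at 11 weeks. Most of the lower sum was that of 1 gene, Itpka, with forebrain means of 15403 for wild type against 7965 for knock-in at 4 weeks, and 15220 against 9579 at 11 weeks. Itpka did not mark Purkinje cells alone here, as it read 7206 to 18250 on the forebrain arrays and 2925 to 8204 on the cerebellar arrays. In forebrain over the mean of ages Itpka fell by 0.80 ± 0.14 (adjusted p = 0.00357), where 5.13% of all probe sets fell. Slc1a6, a glutamate transporter above the filter limit on 7 of 10 forebrain arrays, rose by 0.49 ± 0.10 (adjusted p = 0.00699), where 8.36% of all rose. Pcp2 and Ppp1r17, markers of Purkinje cells, were under the filter limit on all 10 forebrain arrays. The part of these markers in the Rgs8 difference was not tested.

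Rgs4 was lower in knock-in forebrain at all 3 probe sets, and 2 were called. At 1416287_at the knock-in arrays at 4 weeks read 10012, 11912 and 13929 and the wild-type arrays 20607, 19024 and 20682. At 11 weeks they read 9596 and 9613 against 15850 and 15048. The groups did not overlap at either age. The difference was -0.76 ± 0.16 at 4 weeks (adjusted p = 0.0154) and -0.68 ± 0.20 at 11 weeks (adjusted p = 0.127), with a mean of -0.72 ± 0.13, or 1.65-fold lower (adjusted p = 0.00404).

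At 1448285_at the knock-in arrays read 5638, 6170 and 8475 at 4 weeks and 4825 and 5377 at 11 weeks, and the wild-type arrays 12152, 11457 and 12173, then 8132 and 9444. Here too the genotypes were apart at each age. The mean difference was -0.81 ± 0.14 (adjusted p = 0.00295), made of -0.84 ± 0.17 at 4 weeks (adjusted p = 0.0125) and -0.78 ± 0.21 at 11 weeks (adjusted p = 0.106). The means of both probe sets held without any 1 array. Both 4-week calls were lost without knock-in forebrain 4 weeks replicate 1 (adjusted p = 0.066 at 1416287_at and 0.0548 at 1448285_at).

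The brightest Rgs4 probe set, 1416286_at, was lower too, though less. It read 19629, 21732 and 23655 in knock-in and 30182, 29541 and 29406 in wild-type forebrain at 4 weeks, and 17761 and 18327 against 25880 and 21742 at 11 weeks, with no overlap. Its mean difference of -0.43 ± 0.16 was not called (adjusted p = 0.0935; 95% interval -0.78 to -0.08). It was called in a fit of the forebrain arrays alone (adjusted p = 0.0277) and without knock-in cerebellum 4 weeks replicate 2 (0.0259). That array had the highest cerebellar value of this probe set, 2562, against 864 to 1453 on the other 9. Across the 20 arrays the 3 probe sets had Pearson r of 0.99 to 1.00 on the log2 scale, most of which is the difference between the regions.

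**Figure D2:**
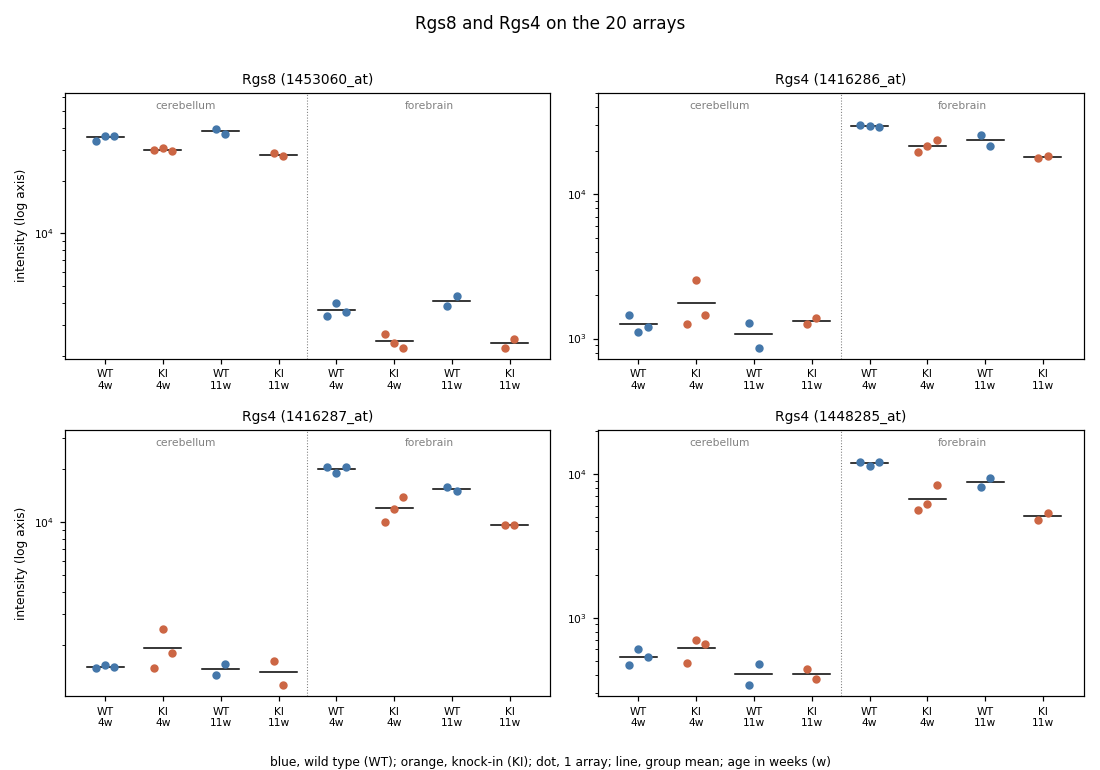
Intensity (log axis, scaled separately in each panel) of the Rgs8 probe set and the 3 Rgs4 probe sets on each array, by region, genotype and age in weeks (w); dots are arrays and lines group means. In forebrain every knock-in array lies below every wild-type array of its age in all 4 panels, and in cerebellum this holds for Rgs8.

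In cerebellum Rgs4 was not called in any comparison of genotypes, with mean differences of 0.37 ± 0.16 at 1416286_at (adjusted p = 0.199), 0.12 ± 0.13 at 1416287_at (0.636) and 0.09 ± 0.14 at 1448285_at (0.747). The last was above the filter limit on 1 of 10 cerebellar arrays, and its sign turned after quantile normalization. The genotype effect differed between the regions by 0.84 ± 0.18 at 1416287_at (adjusted p = 0.0724) and 0.90 ± 0.19 at 1448285_at (0.0676), and by 0.80 ± 0.23 at 1416286_at (0.226). In all, 0 of the 17 Rgs probe sets passed limma for a difference between the regions, against 0.282% of all, while 5 had an unadjusted p under 0.05 (9.14% of all), of which 3 were those of Rgs4. Both dimmer Rgs4 probe sets passed without knock-in cerebellum 4 weeks replicate 1 (0.0322 and 0.0402), and 1448285_at also without knock-in forebrain 4 weeks replicate 3 (0.0321).

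Markers of cortical pyramidal neurons are the ones to set beside Rgs4. Their summed intensity over 7 genes was 61955 to 65081 in knock-in and 69381 to 76550 in wild-type forebrain at 4 weeks, and 60124 to 71012 against 76187 to 77177 at 11 weeks, without overlap. Singly, 0 of the 7 passed in forebrain for the mean of ages, where 5.13% of all probe sets fell and 8.36% rose. Their median difference was -0.28, beside 0.05 over all genes. Their part in the fall of Rgs4 was not tested.

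Rgs7 read lower in knock-in forebrain and did not pass. The arrays at 4 weeks read 5489, 6185 and 9602 in knock-in and 10322, 8710 and 10409 in wild-type mice, and at 11 weeks 7063 and 7146 against 9947 and 8858. Replicate 3 of knock-in forebrain at 4 weeks lay among the wild-type arrays, and the 11-week groups did not overlap. The mean difference was -0.45 ± 0.15 (adjusted p = 0.057; 95% interval -0.77 to -0.13). Without that replicate it was -0.57 (adjusted p = 0.0124), and the 4-week difference was -0.75 (0.0245, against 0.11 with it). It also passed without knock-in cerebellum 4 weeks replicate 1 (0.0315).

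**Figure D3:**
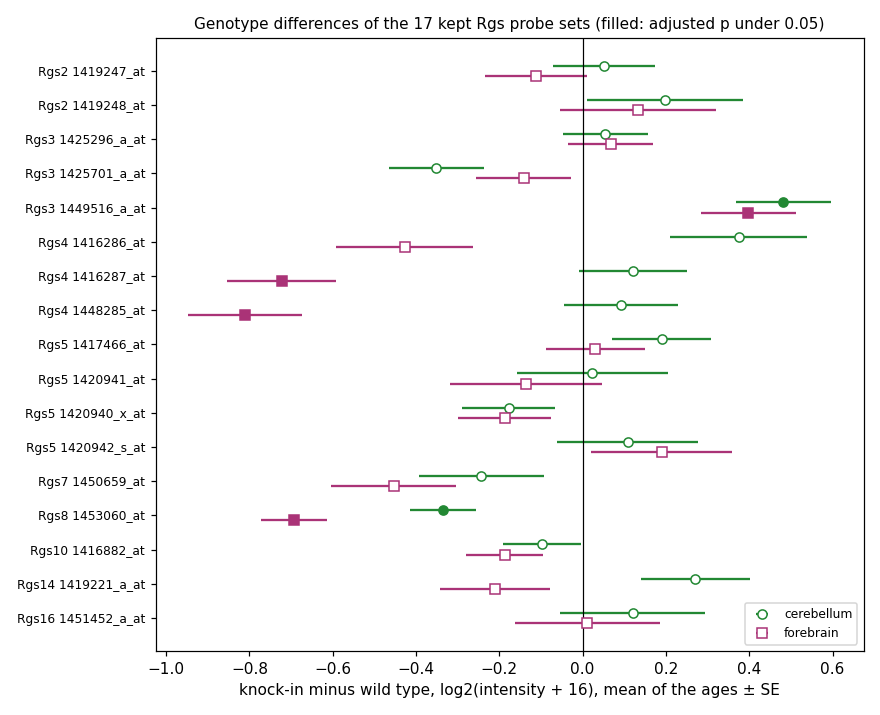
Difference between knock-in and wild-type mice in log2(intensity + 16), averaged over the ages, with its standard error, for the 17 kept Rgs probe sets in cerebellum (circles) and forebrain (squares); filled symbols had an adjusted p under 0.05. Rgs8 is filled on the negative side in both regions, 2 of 3 Rgs4 probe sets in forebrain, and 1 of 3 Rgs3 probe sets on the positive side in both.

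In cerebellum 0 of the 17 Rgs probe sets were called at either age alone, where 0.0512% of all were called at 4 weeks and 0.346% at 11 weeks. By unadjusted limma p under 0.05 there were 4 at 4 weeks (13.3% of all probe sets) and 3 at 11 weeks (14.8% of all). Over the mean of ages 1 rose, of Rgs3 (2.25% of all rose), and 1 fell, that of Rgs8 (1.1% of all fell). Of all calls in that comparison, 67.2% were rises with the deposited scaling, 53.9% after quantile and 46.1% after cyclic loess normalization. At 4 weeks alone 87.5% of the 8 calls were rises, against 33.3% of 3 after either normalization, and at 11 weeks 63% of 54, against 57.1% and 50.8%.

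The Rgs3 probe sets did not move together. At 1449516_a_at the knock-in arrays read 1591, 1469 and 1835 in cerebellum at 4 weeks and 1511 and 1285 at 11 weeks, and the wild-type arrays 1194, 1078 and 1032, then 1018 and 1077. All knock-in arrays lay above all wild-type arrays. The mean difference was 0.48 ± 0.12 (adjusted p = 0.0344). In forebrain at 4 weeks they read 1782, 1726 and 1412 against 1376, 1055 and 1072, and at 11 weeks 1436 and 1654 against 1065 and 1446, where the groups overlapped. The mean difference there was 0.40 ± 0.12 (adjusted p = 0.0341).

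Neither Rgs3 call was firm. The adjusted p in cerebellum rose to 0.0607 at most under quantile normalization, cyclic loess normalization or no filter, and in forebrain to 0.0875 under these or in the forebrain arrays alone. The cerebellar call was lost without any 1 of the cerebellar arrays other than knock-in 4 weeks replicate 2 and wild-type 4 weeks replicate 1 (up to 0.11). The forebrain call was lost without 1 of 6 arrays: knock-in 4 weeks replicates 1 and 2, wild-type 4 weeks replicates 2 and 3, knock-in 11 weeks replicate 2 and wild-type 11 weeks replicate 1 (up to 0.166). At 4 weeks alone the forebrain difference was 0.49 ± 0.15 (adjusted p = 0.0539), and it passed without wild-type forebrain 4 weeks replicate 1, knock-in forebrain 4 weeks replicate 3 or either wild-type forebrain 11 weeks array (0.0287 to 0.0429).

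The other Rgs3 probe sets were not called between the genotypes. In cerebellum 1425701_a_at read 1874, 1949 and 1694 in knock-in and 2563, 2591 and 1908 in wild-type mice at 4 weeks, and 2105 and 1859 against 2684 and 2410 at 11 weeks. Its mean difference of -0.35 ± 0.11 pointed the other way (adjusted p = 0.0943) and passed after cyclic loess normalization (0.0457). At 1425296_a_at the mean differences were 0.05 ± 0.10 in cerebellum and 0.07 ± 0.10 in forebrain. Over the 20 arrays 1425296_a_at and 1425701_a_at had a Pearson r of 0.93 on the log2 scale, and 1449516_a_at had r of -0.03 and -0.26 with them.

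**Figure D4:**
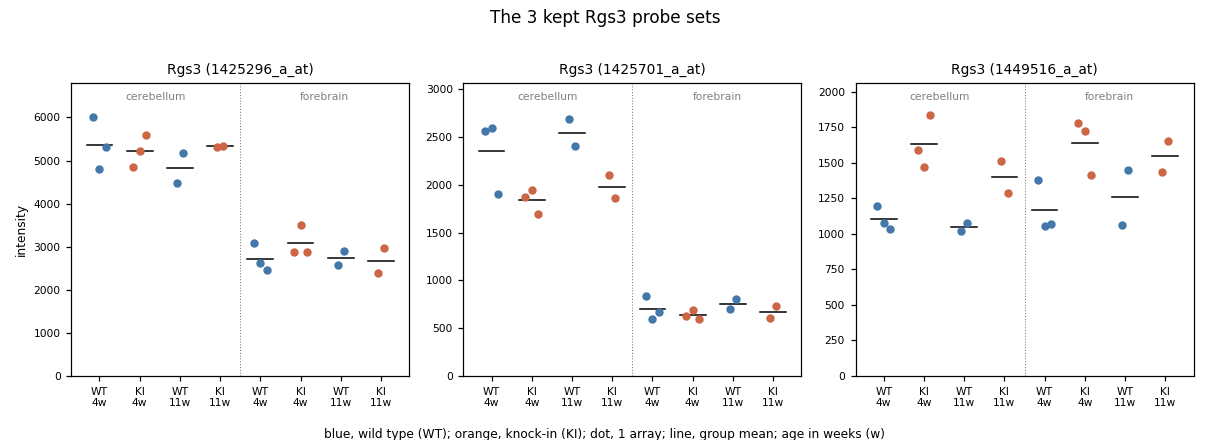
Intensity (linear axis from 0, scaled separately in each panel) of the 3 kept Rgs3 probe sets on each array, by region, genotype and age in weeks (w); dots are arrays and lines group means. The first 2 are higher in cerebellum than in forebrain, and the third is at a similar level in both and higher on knock-in arrays, with overlap in forebrain at 11 weeks.

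Rgs2, Rgs5, Rgs10, Rgs14 and Rgs16 were not called between the genotypes in either region or age. Rgs14, high in forebrain, read 6504 and 6219 in knock-in and 8048 and 7471 in wild-type forebrain at 11 weeks, apart from each other, but 7336, 6402 and 6944 against 7981, 7500 and 7224 at 4 weeks, with overlap. Its mean forebrain difference was -0.21 ± 0.13 (adjusted p = 0.297). In cerebellum at 4 weeks it read 1564, 1099 and 1673 against 919, 947 and 1122 (0.51 ± 0.17, adjusted p = 0.204). Rgs10 read 3333, 3345 and 3564 in knock-in and 4352, 4195 and 3579 in wild-type forebrain at 4 weeks, without overlap, with a mean difference over ages of -0.19 ± 0.09 (adjusted p = 0.188). The summed microglial markers at 4 weeks were 50643 to 57232 in knock-in and 44253 to 47748 in wild-type forebrain. Of the 9, 1 passed at that age, Tmem119, by 0.46 ± 0.12 (adjusted p = 0.0334), where 4.95% of all rose. At 11 weeks the sums overlapped, with 43168 to 45569 in knock-in and 45255 to 46903 in wild-type forebrain. The part of these markers in the Rgs10 values was not tested. Rgs2 differed by -0.11 ± 0.12 in forebrain and 0.05 ± 0.12 in cerebellum at its brightest probe set, with 95% intervals of -0.37 to 0.15 and -0.21 to 0.31.

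The genotype effect was not shown to differ between the ages for any Rgs probe set. In cerebellum 0 of 17 passed limma (0.0256% of all) and 1 had an unadjusted p under 0.05 (5.77% of all). In forebrain 0 of 17 passed (0% of all), and again 1 had an unadjusted p under 0.05 (971 of all probe sets, 6.21%). For Rgs8 the change of the effect from 4 to 11 weeks was -0.21 ± 0.16 in each region, with 95% intervals of -0.54 to 0.13 in cerebellum and -0.55 to 0.12 in forebrain.

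With age, 2 probe sets of Rgs5 fell in cerebellum. Rgs5 is known from pericytes, the contractile cells of small vessels. Between 4 and 11 weeks, with both genotypes averaged, 2 of the 17 Rgs probe sets fell in cerebellum (1.27% of all fell) and 0 rose (0.474% of all rose). At 1420941_at the 6 arrays at 4 weeks read 2646 to 4341 and the 4 arrays at 11 weeks 2703, 1291, 2368 and 2147. These ranges overlapped on 1 array of each age. The difference was -0.82 ± 0.18 (adjusted p = 0.0326). At 1420940_x_at they read 2125 to 2768 and 1545, 1228, 1771 and 1973, without overlap (-0.59 ± 0.11, adjusted p = 0.0131).

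The brightest Rgs5 probe set, 1417466_at, did not show the fall. It read 7733 to 10852 at 4 weeks and 7371 to 8807 at 11 weeks (-0.15 ± 0.12, adjusted p = 0.599). The fourth, 1420942_s_at, whose suffix marks probes shared between transcripts, differed by -0.19 ± 0.17 (adjusted p = 0.652). The x in 1420940_x_at marks probes that may also bind other transcripts, and it and 1420941_at had an r of 0.89 over the arrays, against 0.45 and 0.44 with the brightest. The call at 1420941_at was lost without knock-in 4 weeks replicates 1 or 3, wild-type 4 weeks replicates 2 or 3, knock-in 11 weeks replicate 2 or either wild-type 11 weeks array (adjusted p up to 0.172). That at 1420940_x_at was lost without knock-in 11 weeks replicate 2 or wild-type 11 weeks replicate 1 (up to 0.0949), and both were lost in a fit of the cerebellar arrays alone (0.0981 and 0.0616). The first was also lost without the filter (0.0696) and with the replicate number as a block (0.0876).

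**Figure D5:**
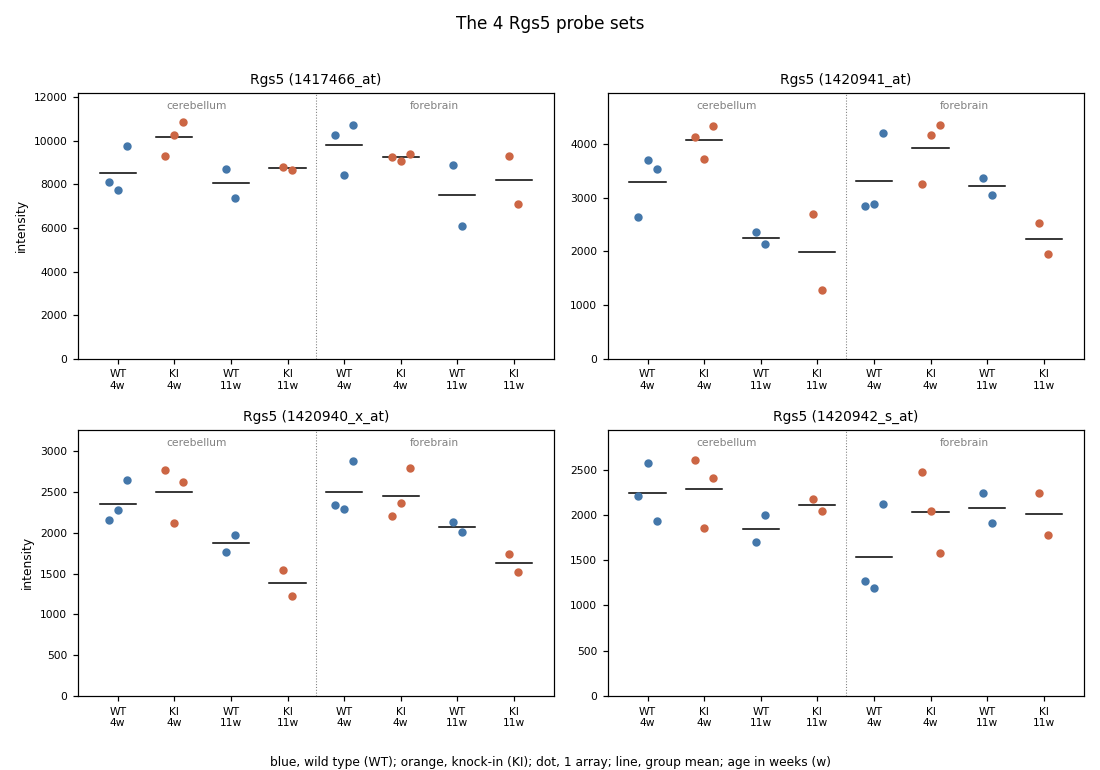
Intensity (linear axis from 0, scaled separately in each panel) of the 4 Rgs5 probe sets on each array, by region, genotype and age in weeks (w); dots are arrays and lines group means. In cerebellum 1420941_at and 1420940_x_at are lower at 11 weeks than at 4 weeks, and 1417466_at and 1420942_s_at were not called.

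Of the 10 pericyte and smooth muscle markers, 6 were kept and 0 passed with age in cerebellum (1.27% of all probe sets fell and 0.474% rose). Their median was -0.27, beside -0.00 over all genes. Their summed intensity was 12750 to 15678 at 4 weeks and 11973 to 13536 at 11 weeks. Oligodendrocyte markers fell more: 4 of 7 fell in cerebellum (Mobp, Ugt8a, Cldn11 and Mog, genes of myelin and its synthesis), where 1.27% of all fell. Their median was -0.68. Their part in the Rgs5 values was not tested. In forebrain 0 of the 17 Rgs probe sets passed limma with age (0.096% of all), while 6 had an unadjusted p under 0.05 (11.7% of all), among them 3 of Rgs5 at -0.29 to -0.42.

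Other genes of the pathway were followed by lists chosen for their roles. Among the RGS proteins outside the 9, 8 of 13 were kept and 1 rose in each region over the mean of ages (2.25% of all rose in cerebellum and 8.36% in forebrain). It was Rgs9, an R7 regulator known from striatum, which rose in knock-in cerebellum from 1444 ± 133 to 2261 ± 336 at 4 weeks (n = 3) and from 1306 ± 5 to 2222 ± 145 at 11 weeks (n = 2). The mean difference was 0.70 ± 0.10 (adjusted p = 0.00514), which held without any 1 array. In forebrain Rgs9 rose by 0.37 ± 0.10 (adjusted p = 0.0323), a call lost without knock-in 4 weeks replicate 2, wild-type 4 weeks replicates 1 or 2 or any of the 4 arrays at 11 weeks (up to 0.0895). The summed striatal markers, Rgs9 among them, overlapped between the genotypes in cerebellum at both ages and in forebrain at 4 weeks. At 11 weeks they read 12702 to 13794 in knock-in against 13827 to 14769 in wild-type forebrain. This sum did not set forebrain apart as the region with striatum. Its wild-type means at 4 and 11 weeks were 14762 and 16264 in cerebellum, and 12350 and 14298 in forebrain. Tac1, a tachykinin precursor on that list, was above the filter limit on 2 of 10 cerebellar arrays, and in cerebellum differed by 1.97 ± 0.31 at 4 weeks (adjusted p = 0.0325) and -2.05 ± 0.38 at 11 weeks (adjusted p = 0.0381), with a difference between the ages of -4.02 ± 0.50 (adjusted p = 0.00907). In forebrain, for the mean of ages, the granule cell marker Cbln3, under the limit on all 10 forebrain arrays, differed by 0.96 ± 0.27 (adjusted p = 0.0296). The water channel Aqp4 was the 1 of 9 astrocyte markers called there (5.13% of all fell), by -0.36 ± 0.10 (adjusted p = 0.0334). Its second probe set was not called (-0.32, adjusted p = 0.0742). Summed astrocyte markers read 108025 to 114915 in knock-in and 101370 to 110099 in wild-type forebrain at 4 weeks. At 11 weeks they read 90106 to 91506 against 109610 to 118928. The part of these markers in the Rgs values was not tested.

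Of the G alpha subunits on which RGS proteins act, 10 of 13 were kept. In forebrain, over the mean of ages, 1 rose, Gnai2, an inhibitory alpha subunit, by 0.41 ± 0.12 (adjusted p = 0.0408), and 0 fell (8.36% of all probe sets rose and 5.13% fell), with a median of 0.01 beside 0.05 over all genes. Of 14 beta and gamma subunits, 10 were kept and 2 rose (8.36% of all rose): Gng10 from 2751 ± 137 to 4081 ± 292 at 4 weeks (n = 3) with a mean difference over ages of 0.54 ± 0.12 (adjusted p = 0.0114), and Gnb4 by 0.31 ± 0.10 (adjusted p = 0.0476). Gng10 was also called at 4 weeks alone (0.56 ± 0.15, adjusted p = 0.0381), which was lost without any 1 of the 6 forebrain arrays of that age (up to 0.11) and in 4 of 7 other settings (up to 0.0842). Its mean over ages passed unless knock-in forebrain 11 weeks replicate 2 was left out (0.0514). The Gnai2 call was lost without wild-type cerebellum 4 weeks replicate 2, knock-in forebrain 4 weeks replicate 1, any wild-type forebrain 4 weeks array or any forebrain array at 11 weeks (up to 0.111). The Gnb4 call was lost without any array other than wild-type forebrain 4 weeks replicate 3, wild-type forebrain 11 weeks replicate 1 and both of knock-in cerebellum at 11 weeks (up to 0.209), and without wild-type forebrain 11 weeks replicate 2 the difference was 0.19. In forebrain the second probe sets of both genes were not called (0.124 and 0.229). In cerebellum, for the mean of ages, 0 of the 10 alpha and 0 of the 10 beta and gamma subunits passed at their brightest probe set (2.25% of all rose and 1.1% fell), though the second of Gnb4 rose by 0.41 ± 0.10 (adjusted p = 0.0312).

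Of the 8 kept genes of phospholipase C beta, IP3 receptors and protein kinase C, 2 fell in forebrain (5.13% of all fell) and 0 rose, with a median of -0.28. Plcb4, the phospholipase C beta of Purkinje cells, fell from 1817 ± 104 to 1133 ± 330 in forebrain at 4 weeks (n = 3), with a mean difference of -0.94 ± 0.22 (adjusted p = 0.0151; 0.0868 without knock-in forebrain 11 weeks replicate 2). In cerebellum it was the 1 called (1.1% of all fell), at -0.92 ± 0.22 (adjusted p = 0.0364). The cerebellar call was lost without any 1 of 8 of the 10 cerebellar arrays, all but wild-type 4 weeks replicate 1 and knock-in 11 weeks replicate 1 (up to 0.152), and its second probe set was not called in cerebellum (0.522) or forebrain (0.0522). Prkcb, a protein kinase C, fell in forebrain by 0.34 ± 0.08 (adjusted p = 0.0184; up to 0.0761 without knock-in 11 weeks replicates 1 or 2 or wild-type 11 weeks replicate 1) and at its second probe set by 0.54 (0.00379).

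Among 15 kept receptors that couple to Gi/o or Gq, 1 rose in each region over the mean of ages. Of all probe sets, 2.25% rose in cerebellum and 8.36% in forebrain. Chrm4, a muscarinic acetylcholine receptor, read 174 ± 120 in wild-type and 732 ± 109 in knock-in forebrain at 4 weeks (n = 3). It was under the filter limit on all wild-type arrays and above it on 1 knock-in forebrain array of each age, so its fold has no bound. It passed the filter only through knock-in forebrain, where it was high, so its call is not independent support for a rise. Its difference was 2.14 ± 0.29 at 4 weeks (adjusted p = 0.00189), on the log2 scale with the offset. Over the mean of ages the difference was 1.57 ± 0.23 (adjusted p = 0.00132). Htr1a, a serotonin receptor under the limit on all wild-type cerebellar arrays, rose in cerebellum by 0.54 ± 0.12 (adjusted p = 0.024; 0.0078 at its second probe set). The call was lost without knock-in or wild-type cerebellum 11 weeks replicate 2 (up to 0.0964). Arrb1, an arrestin that uncouples receptors, was the 1 of 4 kept kinases and arrestins to fall in forebrain (5.13% of all fell). It fell by 0.32 ± 0.07 (adjusted p = 0.0112, and 0.0526 without wild-type forebrain 11 weeks replicate 1). Kcnj6, 1 of 3 kept GIRK channel genes, rose in cerebellum (2.25% of all rose) by 0.42 ± 0.09 (adjusted p = 0.028), but was lost without knock-in 4 weeks replicate 3, wild-type 4 weeks replicates 2 or 3, knock-in 11 weeks replicate 2 or either wild-type 11 weeks array (up to 0.105), after quantile or cyclic loess normalization or in the cerebellar arrays alone (up to 0.0852). It also passed in forebrain at 4 weeks (0.43 ± 0.12, adjusted p = 0.0429), a call that held without 6 of the 20 arrays, knock-in and wild-type cerebellum at 4 weeks, and was lost without any of the other 14 (up to 0.107) and in 5 of 7 other settings (up to 0.228), with a difference of 0.28 after quantile and 0.24 after cyclic loess normalization. Of the 16 kept adenylyl cyclases and cyclic AMP targets and the 2 kept partners of RGS proteins, 0 were called in either region. Over the mean of ages, 2.25% of all rose and 1.1% fell in cerebellum, and 8.36% rose and 5.13% fell in forebrain. Other settings ended several of these calls: each region fitted alone ended those of Rgs9, Gnai2, Gnb4 and Arrb1 in forebrain and Plcb4 and Htr1a in cerebellum, with the highest adjusted p over all settings at 0.0686, 0.0739, 0.116, 0.0534, 0.0654 and 0.102 in that order.

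Genes with the pattern most like that of a member were found by Pearson r of log2(intensity + 16) over the 20 arrays, after each region's mean was taken away, with 1 probe set a gene. The points share their genotype and age groups, so r includes the group differences. For Rgs8 the 3 nearest were Pcmtd2 (r = 0.93), Gad1, an enzyme of GABA synthesis (0.90), and Fmr1, an RNA-binding protein (0.90). For Rgs7 they were Cacng4 (0.87), Cdk11b (0.84) and Gnb2, a G beta subunit (0.83). For Rgs4 they were Lamp5 (0.77), Entpd7 (0.76) and Rap1gds1 (0.71), and Lamp5 was also nearest to Rgs10 (0.84). Lamp5 was above the filter limit on 11 of the 20 arrays. The top 1% of all genes compared began at r of 0.75 for Rgs8, 0.66 for Rgs7, 0.56 for Rgs4 and 0.60 for Rgs10. Among the 9 members themselves the highest values were 0.57 for Rgs4 with Rgs10, 0.53 for Rgs8 with Rgs10 and 0.52 for Rgs7 with Rgs8, while Rgs4 and Rgs8 had 0.19.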

How the data were processed

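Each array was deposited by the authors as 1 linear intensity per probe set, and the 2% trimmed mean of these values was 2500.59 to 2500.75 on every array, which shows a common scaling. For software, probe summary and genome build, the sources used here give no name. No detection calls were used. Array medians were 979 to 1180. Depth does not apply to arrays, and their number limits the precision. Of the probe sets that are not controls, the annotation names a single gene for 20380, several for 691 and none for 1555; 20351 of the first were matched to RefSeq genes.

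Values were tested as log2(intensity + 16), an offset that understates changes of dim probe sets. Probe sets above their array's 40th percentile of intensity (median limit 681) on at least 2 arrays were kept, which left 15627. The functions lmFit and eBayes of limma 3.58.1 (R 4.3.3) fitted the 8 group means over the 20 arrays together, after the code was tested on simulated data. Tests are two-sided, with 12 residual and 3.45 prior degrees of freedom. Means over ages weight both ages equally. A gene with several probe sets is described by the brightest, with the others beside it, and list genes are named where called between the genotypes, at most 4 a list and comparison. Alternatives were another offset, quantile and cyclic loess normalization, no filter, 1 probe set a gene, each region fitted alone, the replicate number as a block, and leaving out each array.

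The 9 genes, the lists and the tests were chosen with earlier results of these data known. Batches could not be examined, so a batch that goes with genotype, region or age cannot be told apart from them.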

Additional observations from a re-analysis of the deposited data

How the results depend on the processing

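Of the 12 comparisons, the number of Rgs probe sets called stayed within 1.5 times its main value under every planned setting except as follows. With 1 probe set a gene, 1 was called in forebrain at 4 weeks, 1 in the cerebellar and 1 in the forebrain mean of ages, 7 between wild-type regions and 0 with age in cerebellum. That setting tests only the brightest probe set of each gene. The probe sets called for Rgs3 and Rgs4 between genotypes, and for Rgs5 with age, were not the brightest of their genes. In each region fitted alone, 0 were called in forebrain at 11 weeks and 0 with age in cerebellum. Quantile normalization left 0 in the cerebellar mean. Without the filter 0 were called there and 1 with age in cerebellum. With the replicate block, 1 was called with age in cerebellum. Arrays of the same number deviated from their group means with correlations of -0.10 to 0.11, so the numbers were not taken to pair the arrays. Leaving out 1 array gave 1 to 5 in forebrain at 4 weeks, 0 to 1 at 11 weeks, 0 to 2 in the cerebellar mean, 3 to 5 in the forebrain mean, 0 to 2 for the difference between regions and 0 to 2 with age in cerebellum. Where no other reason is named, the cause was not tested. No difference of a named probe set changed sign where it was called.

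Over all probe sets, leaving out 1 array gave 393 to 1170 calls in forebrain at 4 weeks (1151 with all), 14 to 151 at 11 weeks (135), 94 to 708 in the cerebellar mean (524) and 732 to 2210 in the forebrain mean (2108). The other settings gave 547 to 1194, 26 to 142, 307 to 545 and 1301 to 2198. Over all settings and left-out arrays, calls ranged from 0 to 58 in cerebellum at 4 weeks (8 in the fit reported), 1 to 67 at 11 weeks (54), 20 to 53 for the difference between regions (44), 76 to 337 with age in cerebellum (273), 0 to 36 with age in forebrain (15), and 0 to 11 and 0 to 4 for the differences between ages in cerebellum (4) and forebrain (0). Between wild-type regions 1 probe set a gene gave 4593 (7485). The difference between regions has no value for a region fitted alone, and probe sets that are not a gene's brightest have none with 1 probe set a gene. With 2 or 3 arrays a group, a single array can decide a call, and low intensities limit Rgs16 and cerebellar Rgs4.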
